A study of Rattus norvegicus with 8 samples.

Results

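Gonadotrophs are the anterior pituitary cells that make follicle-stimulating hormone (FSH) and luteinising hormone (LH). The 10 genes described here encode the hormone-specific subunits (Fshb, Lhb), the receptor for gonadotrophin-releasing hormone (Gnrhr), the subunits and antagonist of the activin and inhibin system (Inha, Inhba, Inhbb, Fst), and 3 transcription factors of the cell type (Nr5a1, Foxl2, Nr0b1). They were found by their name on the array, as non-control spots, among 26257 gene names in all. They held 12 probes, Inhbb and Nr5a1 having 2 each, and every probe had 1 spot. Total RNA of whole pituitaries from lactating Wistar rats on postpartum day 7 was measured on single-colour Agilent arrays, 1 array per sample. The 4 samples of the first group came from dams whose labelled agent was control, and the 4 of the second from dams given TCDD, a dioxin that activates the aryl hydrocarbon receptor (AhR). The labels used here state neither the dose, nor the day of dosing, nor the age of the dams. Slide 1 carried the 4 control arrays and slide 2 the 4 TCDD arrays, which means that no comparison below separates the slides from the groups: they cannot be told apart. Each group is described as 4 rats without further detail. A p-value for a group difference sets that difference, with any slide effect in it, against the scatter of these samples. The limma fits below also borrow the scatter of the other genes tested.

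As background, pulses of gonadotrophin-releasing hormone from the hypothalamus act on Gnrhr and drive both beta subunits, which pair with the common alpha subunit Cga. Activin, a dimer of the Inhba or Inhbb products, raises Fshb transcription from within the pituitary, while follistatin (Fst) binds activin and inhibin, a dimer of the Inha product with a beta subunit, blocks its receptors. For this reason Fshb is known as the gonadotrophin subunit most sensitive to the local balance of these proteins. Suckling is known to hold gonadotrophin secretion down in lactating rats.

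The probe sequences show which stretch of each transcript was measured. In the 4 probes below the reading frame ended in a stop codon, printed in capitals, so these probes read the end of the coding sequence. They were designed on rn4 and all target the minus strand: Fshb at chr3:92569344-92569403, Inhba at chr17:57244565-57244624 (its 8 bases after the stop codon are not shown), Fst at chr2:46542246-46542305 and the dimmer of the Nr5a1 probes at chr3:18499562-18499621, which is not the one used for that gene's level.
Fshb: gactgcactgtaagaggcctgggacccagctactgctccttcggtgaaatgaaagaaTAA
Inhba: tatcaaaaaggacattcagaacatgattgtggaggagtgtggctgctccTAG
Fst: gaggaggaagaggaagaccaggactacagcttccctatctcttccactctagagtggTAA
Nr5a1: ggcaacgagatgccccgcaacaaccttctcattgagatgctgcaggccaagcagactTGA
The other probes lie on chromosome 1 from 95893918 to 95893977 (Lhb), on 14 from 23656426 to 23656485 (Gnrhr), on 9 from 74783980 to 74784040 (Inha), on 13 from 32171058 to 32171117 and from 32172165 to 32172224 (Inhbb), on 3 from 18507346 to 18507405 (the brighter Nr5a1 probe), on 8 from 103804282 to 103804341 (Foxl2) and on X from 73010187 to 73010246 (Nr0b1). The exon or untranslated region that these fall in was not determined here.

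Of the 10 genes, 9 were well above background on all 8 arrays by the probe used, and Foxl2 was on none. All values below are log2 signals relative to the array's 75th percentile unless a linear signal is named, and probes of different genes are not compared in level. After TCDD the Fshb and Gnrhr signals were lower on average, by 1.64-fold and 1.43-fold, and the other 7 measured genes differed by at most 1.19-fold on average. None of the 9 passed an adjusted p of 0.05 (limma, Benjamini-Hochberg adjustment over 17361 genes), their adjusted p-values lying between 0.38 and 0.94. Over all genes 0.0806% passed, 14 in all, and 0.023% passed as lower. At an unadjusted p under 0.05 there were 2 of the 9, Fshb and Gnrhr, both lower, against 10.7% of all genes in either direction, 2.95% lower and 7.76% higher. With any of control replicates 1 and 3 and TCDD replicates 2 and 4 left out singly, the unadjusted limma p of Fshb was between 0.051 and 0.055. That of Gnrhr was between 0.069 and 0.11 without any of these or TCDD replicate 3, and 0.054 with no filter on dim probes. The background leaned upward, with 1348 genes higher and 512 lower, while centring each array on its median gave 755 and 813. The groups overlapped for all 9 genes, where 7.1% of all genes had groups that did not overlap. The median difference of the 9 was -0.15 and that of all genes 0.02, with 5 of the 9 lower and 4 higher, where 43.6% of all genes were lower.

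**Figure D1:**
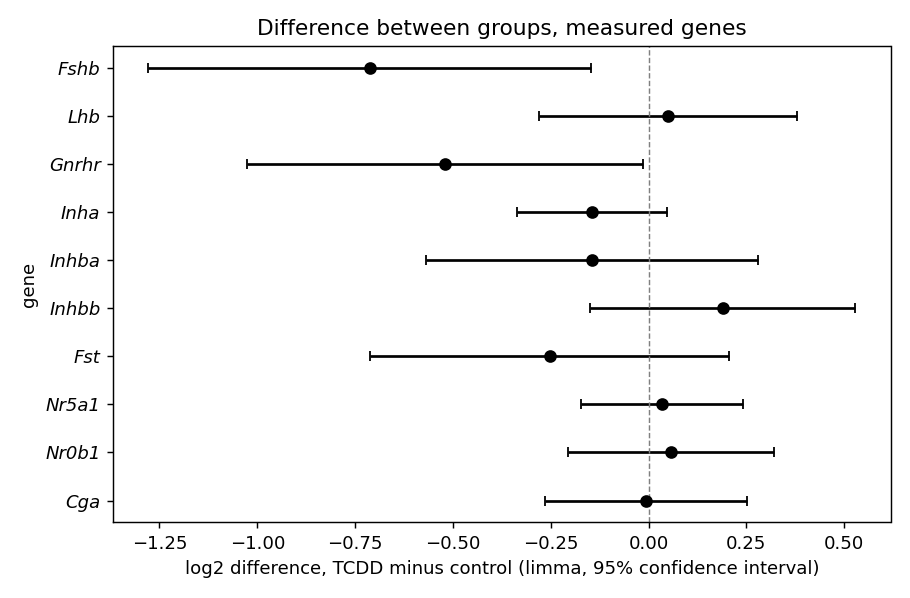
Log2 difference between TCDD and control (x axis) for each measured gene and Cga (y axis), with the 95% confidence interval of limma as bars. The intervals of Fshb, from -1.28 to -0.15, and Gnrhr, from -1.03 to -0.01, lie below 0, and those of the other genes include 0.

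Fshb, the subunit that gives FSH its identity, had linear processed signals of 3482, 2269, 3182 and 1631 on control arrays 1 to 4. On TCDD arrays 1 to 4 they were 2092, 1067, 1524 and 1411. Thus 3 of the 4 TCDD arrays lay below every control array, while TCDD replicate 1 lay above control replicate 4. On the log2 scale Fshb averaged 1.55 ± 0.43 (SD) over the 4 control arrays and 0.83 ± 0.36 (SD) over the 4 TCDD arrays. The difference was -0.71 (SE 0.25; limma, adjusted p = 0.38), and the exact two-sided permutation p was 0.057, where 70 assignments of the arrays allow no p below 0.029. By unadjusted p, Fshb stood at rank 889 of the 17361 genes. Leaving out any 1 array kept the difference between -0.89 and -0.59 (limma, adjusted p from 0.25 to 0.62). In whole tissue, fewer gonadotrophs and less of a transcript per gonadotroph cannot be told apart.

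**Figure D2:**
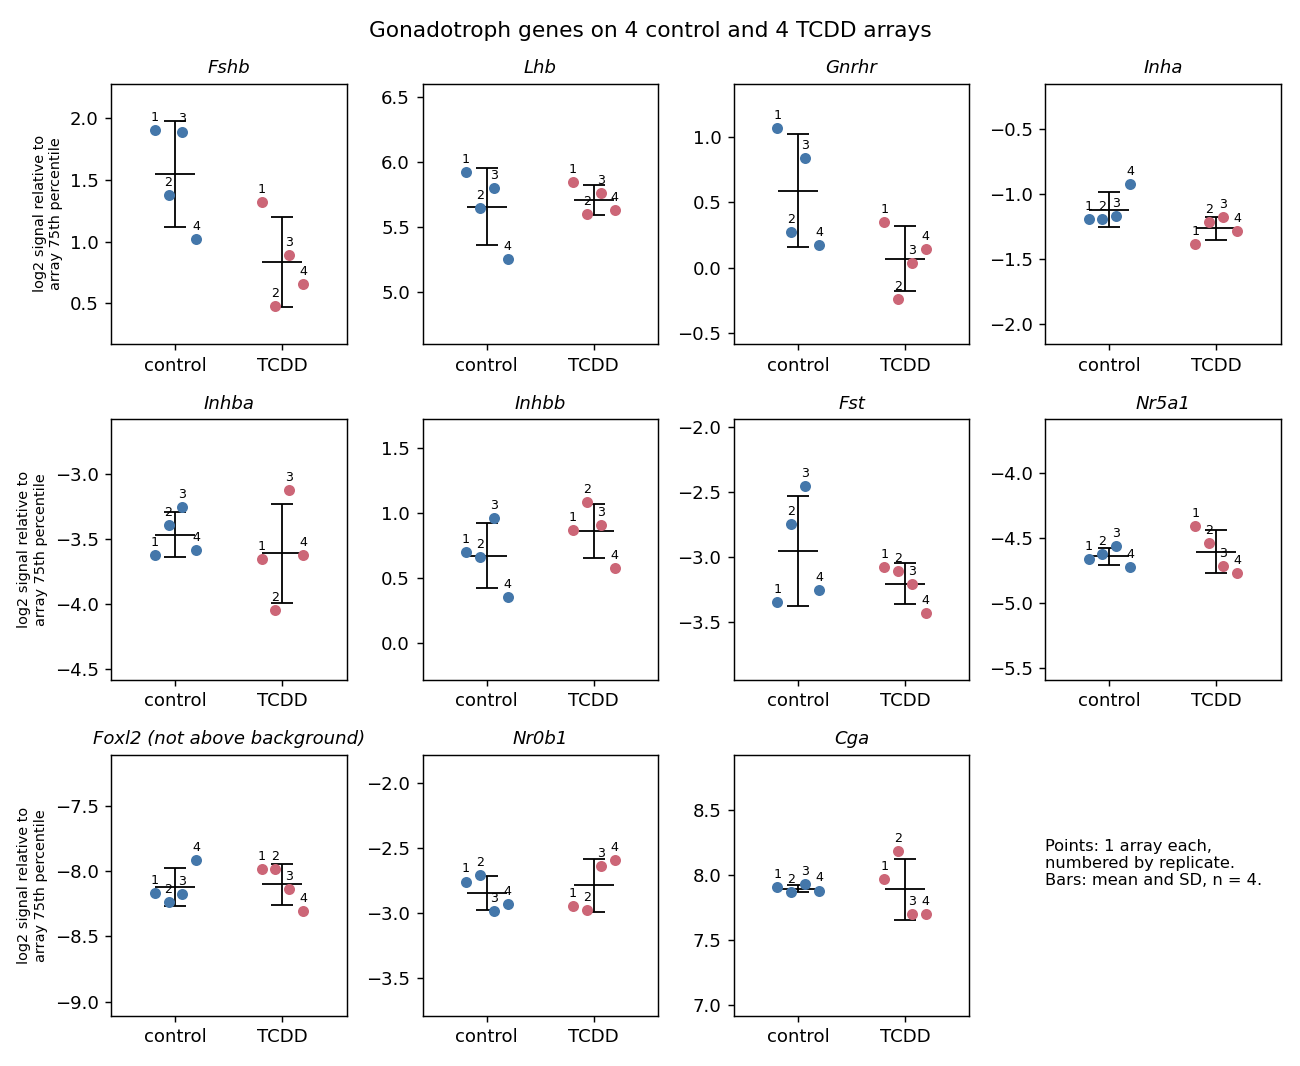
Log2 signal relative to each array's 75th percentile (y axis) for the 10 genes and Cga on control and TCDD arrays (x axis), 1 point per array numbered by replicate, with bars for mean and SD (n = 4). Fshb and Gnrhr sit lower on most TCDD arrays, control replicate 4 is the lowest control for Fshb, Lhb and Gnrhr, and Foxl2 is not above background on any array.

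Lhb, the beta subunit of LH, had log2 signals of 5.92, 5.65, 5.80 and 5.25 on control arrays 1 to 4, and of 5.84, 5.60, 5.76 and 5.63 on the TCDD arrays. The groups thus overlapped throughout, and the widest departure was the low value of control replicate 4. The difference was 0.05 (SE 0.14; 95% confidence interval from -0.28 to 0.38; limma, adjusted p = 0.94). It took the opposite sign without control replicate 4, at -0.086, and with array weights, at -0.012. Cga, the alpha subunit shared with thyroid-stimulating hormone, was nearly constant in controls, from 7.87 to 7.93, and wider after TCDD, from 7.70 to 8.18. Its means were 7.89 ± 0.03 and 7.89 ± 0.23 (SD, n = 4 each), a difference of -0.0066 (SE 0.11) whose sign depended on the scaling, with 0.12 under normexp background correction followed by quantile normalization. Its highest value, 8.18, was on TCDD replicate 2, where Tshb, the thyrotroph beta subunit, was 7.78 against 6.32 to 6.82 on the other 7 arrays and the summed thyrotroph list (3 of 3 markers measured) was 0.68 against -0.23 to 0.11. The part of thyrotrophs in the Cga values, and whether its spread differed between the groups, were not tested.

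Gnrhr, the receptor through which the hypothalamus drives both hormones, had log2 signals of 1.07, 0.27, 0.84 and 0.18 on control arrays 1 to 4. On the TCDD arrays they were 0.35, -0.24, 0.03 and 0.14. Control replicates 1 and 3 stood above the remaining 6 arrays, and 3 of the 4 TCDD arrays lay below every control. The difference was -0.52 (SE 0.22; limma, adjusted p = 0.45), with an exact two-sided permutation p of 0.11. Without control replicate 1 it was -0.36, and over the other arrays left out in turn it ranged to -0.66.

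Marker lists of other cell types were summed as the mean log2 deviation from the 8-array mean. All 5 measured posterior lobe markers of 7 listed were lower after TCDD on average, the list lying from -0.55 to 0.78 in controls and from -0.60 to -0.11 after TCDD. Its 3 highest arrays, control replicates 3, 2 and 1, were also the 3 with the highest Fshb signal, and control replicate 4 was the lowest control for both. Avp, the vasopressin gene of that lobe, differed by -1.41 (SE 0.52; limma, adjusted p = 0.41), and Gfap was well above background on 2 arrays at most. All 5 measured erythrocyte markers of 9 listed were higher, from -0.73 to 0.22 in controls and from -0.0011 to 0.72 after TCDD. That list ran opposite to Fshb over most arrays: control replicates 1 to 3 were lowest in it and highest in Fshb. TCDD replicate 1, control replicate 4 and TCDD replicates 3, 4 and 2 followed in that order, rising in the list and falling in Fshb. Control replicate 4, at 0.22, thus lay among the TCDD arrays. On control replicates 1 to 3 the list was -0.63, -0.73 and -0.67 and Fshb 1.90, 1.38 and 1.89, so there they ran the same way. This ordering was read from the values and was not tested. All 6 leukocyte markers of 6 were lower, from 0.02 to 0.19 in controls and from -0.47 to 0.08 after TCDD. The widest was Itgb7, at -0.94 (SE 0.11; limma, adjusted p = 0.042), itself among the genes past the threshold in these data. The other leukocyte markers differed by -0.30 (Csf1r) to -0.03 (Ptprc), so the list leans on Itgb7. The part of posterior lobe tissue, erythrocytes and leukocytes in the Fshb and Gnrhr values was not tested. The gonadotroph list itself, 6 of 7 markers measured and Foxl2 not, had 3 higher and 3 lower, from -0.16 to 0.29 in controls and from -0.19 to 0.08 after TCDD, and it holds Fshb and Gnrhr. Prl, Gh1 and Pomc, the hormones of the neighbouring endocrine cells, differed by -0.0026, -0.08 and -0.0046, and Tshb, that of thyrotrophs, by 0.18 (SE 0.29), all with overlapping groups. Other markers in the lists of the first 3 hormones moved more: Pou1f1 by 0.35 (SE 0.14; limma, adjusted p = 0.44) and Ghrhr by -0.33 (SE 0.20). Pcsk2 differed by 0.30 (SE 0.18) and Tbx19 by -0.26 (SE 0.19). The lactotroph list had 2 markers higher and 2 lower, the somatotroph list 1 and 2. The corticotroph and melanotroph list had 1 and 3. Of 6 ovarian markers, Amh was measured, at -6.82 to -6.02 in controls and -6.53 to -5.71 after TCDD (difference 0.38, SE 0.23; limma, adjusted p = 0.62). Cyp11a1 was well above background on 1 array and Fshr, Lhcgr and Star on none. Over the arrays as a whole, the 75th percentile of linear signal lay between 765 and 932, between 71.1% and 73.9% of spots were well above background, and 0 spots were saturated.

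Activin and inhibin share their beta subunits. Inhbb, which forms activin B and inhibin B, had log2 signals of 0.70, 0.66, 0.96 and 0.36 on the control arrays and of 0.87, 1.08, 0.91 and 0.58 on the TCDD arrays. Its mean was higher after TCDD by 0.19 (SE 0.15; limma, adjusted p = 0.72), with overlapping groups, and was 0.084 without control replicate 4, 0.12 without TCDD replicate 2 and 0.29 without control replicate 3. The dimmer Inhbb probe, about a kilobase away, ran in the same direction with a difference of 0.14. Inhba, the subunit of activin A and inhibin A, was dim and lay from -3.63 to -3.26 in controls and from -4.04 to -3.12 after TCDD. Its difference was -0.15 (SE 0.18; limma, adjusted p = 0.84), and TCDD replicates 2 and 3 were the lowest and the highest of all 8 arrays. Without TCDD replicate 2 the difference was -0.0014, without TCDD replicate 3 it was -0.31 and without control replicate 3 it was -0.075.

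Inha, the alpha subunit that turns a beta subunit into inhibin, had log2 signals of -1.19, -1.20, -1.17 and -0.93 on the control arrays, and of -1.38, -1.22, -1.18 and -1.29 on the TCDD arrays. Control replicate 4 stood apart at the top while it was the lowest control for Fshb, Lhb, Gnrhr and Inhbb. The difference was -0.15 (SE 0.08; limma, adjusted p = 0.60; exact two-sided permutation p = 0.086), and -0.08 without that array. Fst, which binds activin, had log2 signals of -3.35, -2.75, -2.46 and -3.26 on the control arrays, and of -3.07, -3.11, -3.21 and -3.43 on the TCDD arrays. Its lower mean after TCDD, by 0.25 on the log2 scale (SE 0.20; limma, adjusted p = 0.72), rested on control replicates 2 and 3, and the difference was -0.089 without the latter and -0.38 without control replicate 1. None of these genes thus passed the test, whether it raises or restrains activin action.

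A difference between 2 genes on the same array does not depend on the factor by which that array was scaled, so Fshb was set against each other gene within arrays. Log2 Fshb minus log2 Lhb was -4.02, -4.27, -3.91 and -4.23 on control arrays 1 to 4 and -4.53, -5.12, -4.87 and -4.97 on the TCDD arrays. Every TCDD array thus lay below every control array, which was not so for Fshb alone. The mean of this difference was lower after TCDD by 0.76 on the log2 scale (SE 0.15, from the spread of the 4 and 4 values). The exact two-sided permutation p was 0.029, the lower limit for 70 assignments, and 0.086 after Benjamini-Hochberg adjustment over the 9 pairs compared, so it did not pass. Fshb relative to Inhbb and to Nr5a1 also had no overlap between groups, with differences of -0.90 (SE 0.25) and -0.75 (SE 0.25) and the same p-values. Against all other genes tested, Fshb relative to the gene gave lower TCDD values without overlap in 10.8% and higher ones in 0%.

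The other pairs overlapped. Fshb minus Gnrhr showed the least difference, -0.19 (SE 0.12), with 0.83 to 1.11 in controls and 0.51 to 0.97 after TCDD (exact permutation p = 0.20). Relative to Inha, Inhba and Fst, Fshb was lower after TCDD by 0.57, 0.57 and 0.46 on the log2 scale, with exact permutation p-values of 0.17, 0.11 and 0.23. Relative to Nr0b1 and Cga it was lower by 0.77 and 0.71, with p = 0.086 for each (exact permutation). All 9 differences had the same sign, which is that of Fshb itself and is shared through it.

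**Figure D3:**
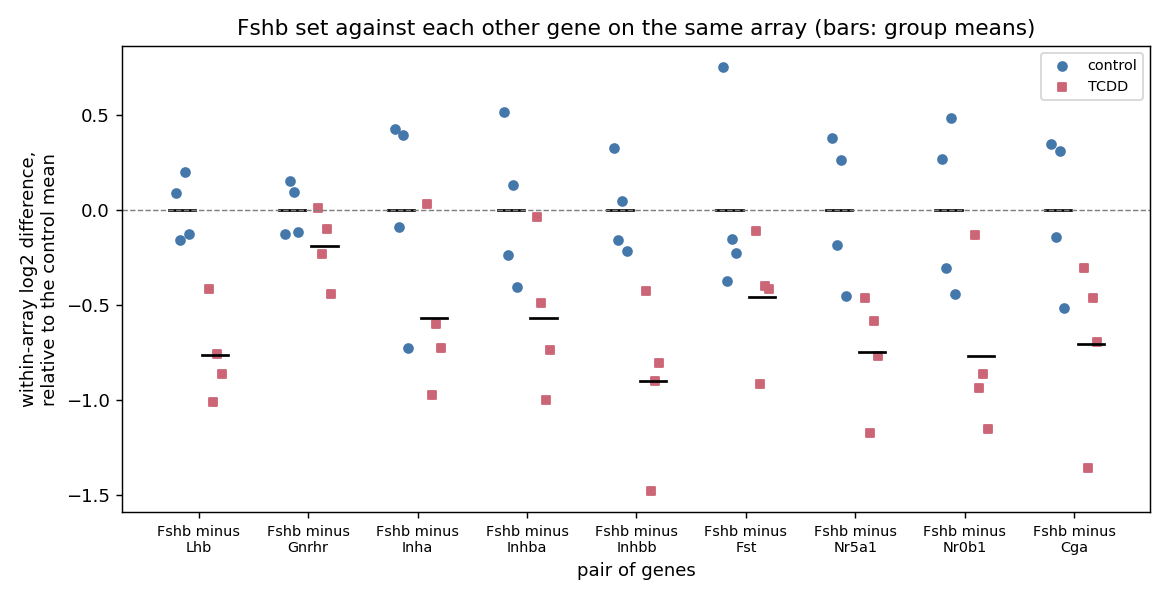
Log2 Fshb minus log2 of another gene on the same array, shifted so that the control mean is 0 (y axis), for 9 pairs (x axis), 1 point per array and a bar for each group mean. Control and TCDD points do not overlap for Lhb, Inhbb and Nr5a1, and the means lie closest for Gnrhr.

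Array by array, Fshb and Gnrhr ran together. Over the 8 arrays Pearson's r was 0.94 and Spearman's rho 0.95 (exact permutation p = 0.000298 and 0.0011; adjusted over 8 relations 0.0024 and 0.0091). Without control replicates 1 and 3, the arrays farthest from the Gnrhr median, r was 0.87 (exact permutation p = 0.017; adjusted p = 0.13). For deviations from the group means r was 0.90, with an exact p of 0.016 when arrays were permuted within groups (adjusted p = 0.063). By r with Fshb, Gnrhr ranked 6 among 12475 other genes with a symbol. Each group lay on 1 slide and held 4 arrays, too few for a correlation within it.

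Lhb gave r = 0.54 and rho = 0.71 over the 8 arrays (exact permutation p = 0.17 and 0.058). Its deviations from the group means followed those of Fshb, with r = 0.91 and rho = 0.93 (exact permutation p = 0.0017, the smallest that 576 pairings within groups allow; adjusted p = 0.014). Over the 8 arrays, without removing the group means, the activin and inhibin genes had r of -0.01 for Inhbb, 0.02 for Inha, 0.42 for Inhba and 0.49 for Fst, with exact permutation p-values of 0.98, 0.97, 0.31 and 0.22. Over deviations from the group means r was -0.74 for Inha (exact permutation p = 0.054; adjusted p = 0.14), 0.47 for Inhbb, 0.33 for Inhba and 0.29 for Fst (exact permutation p = 0.29, 0.44 and 0.51). For Nr5a1 and Nr0b1 r was 0.24 and -0.18 (exact permutation p = 0.58 and 0.64). The corresponding rho values lay between -0.21 for Nr0b1 and 0.31 for Inha and Fst (exact permutation p = 0.62, 0.46 and 0.46). Without the 2 farthest arrays r was 0.68 for Lhb, 0.59 for Inha, 0.48 for Inhba, 0.33 for Inhbb, -0.15 for Fst, 0.02 for Nr5a1 and 0.38 for Nr0b1, with exact permutation p-values of 0.14 or more. After adjustment over the 8 relations none but Gnrhr passed over the 8 arrays, the others having an adjusted p of 0.59 or more for r.

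**Figure D4:**
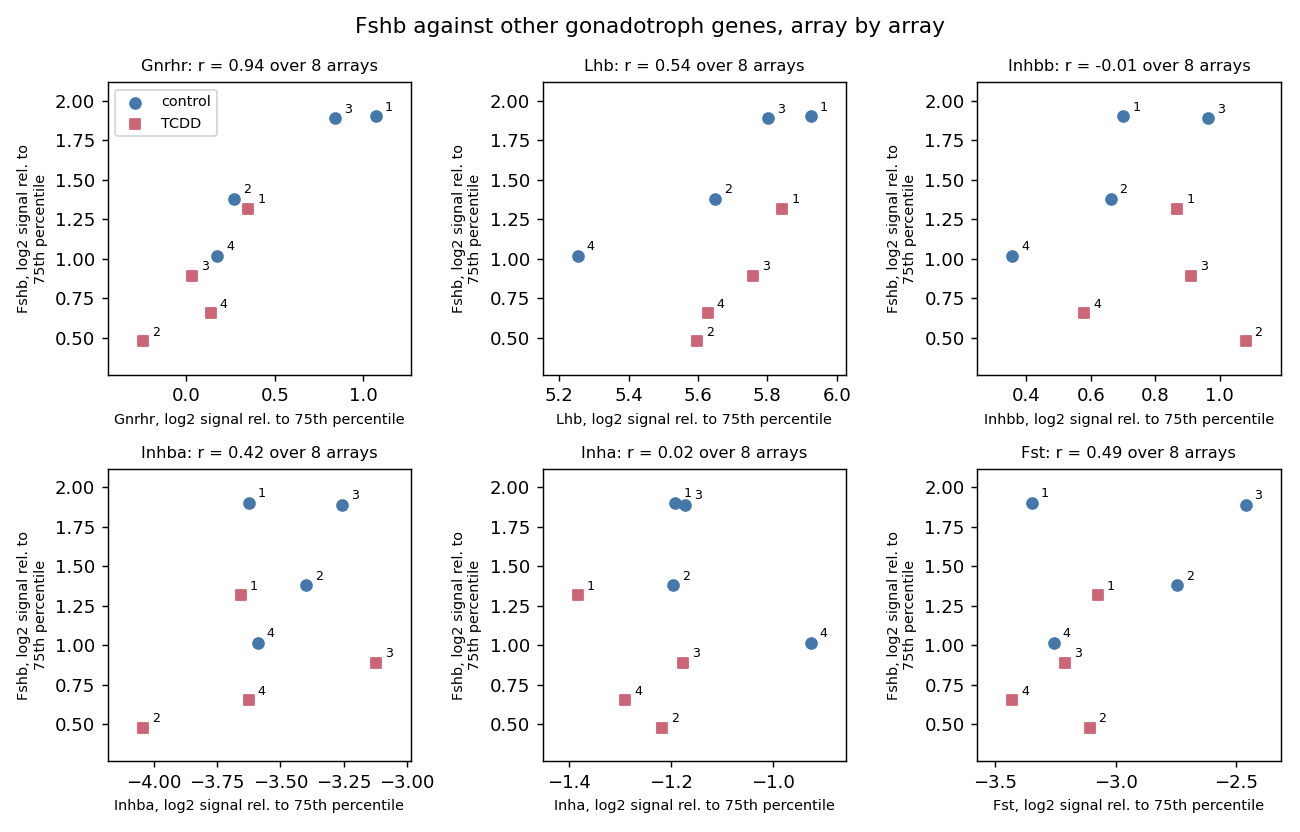
Log2 Fshb signal (y axis) against the log2 signal of 6 other genes (x axes), both relative to the array's 75th percentile, 1 point per array numbered by replicate, with Pearson's r over 8 arrays. Points for Gnrhr fall along 1 line with r = 0.94, and for Lhb they scatter more widely, with r = 0.54.

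Among the transcription factors, Nr5a1, which encodes steroidogenic factor 1 (SF-1), was dim. The brighter probe lay from -4.72 to -4.56 in controls and from -4.77 to -4.41 after TCDD, a difference of 0.03 (SE 0.09; limma, adjusted p = 0.93) whose sign turned with quantile normalization. The other probe was well above background on 3 arrays of each group and differed by 0.31, with overlapping groups. Nr0b1, which encodes DAX-1, a repressor of SF-1, lay from -2.98 to -2.71 in controls and from -2.98 to -2.59 after TCDD, a difference of 0.06 (SE 0.11; limma, adjusted p = 0.91). Foxl2, a forkhead factor known to act with SMAD proteins on Fshb, had linear signals between 2.83 and 3.35 over the 8 arrays and was not well above background on any of them, so no fold is given. Foxl2 is a known gonadotroph gene, and its value rests on 1 probe.

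SF-1 and the GnRH-induced factor EGR1 are known to act on the proximal Lhb promoter, which is shown as a worked example of this control because the Lhb level is the reference for Fshb above. RefSeq promoter windows on GRCr8 were at hand for 8 of the 11 genes (the 10 and Cga), Fshb, Fst and Foxl2 being the others. The 250 bases before the first Lhb start, chr1:105037207-105037456 on the plus strand, are given with the matches in capitals.
Lhb: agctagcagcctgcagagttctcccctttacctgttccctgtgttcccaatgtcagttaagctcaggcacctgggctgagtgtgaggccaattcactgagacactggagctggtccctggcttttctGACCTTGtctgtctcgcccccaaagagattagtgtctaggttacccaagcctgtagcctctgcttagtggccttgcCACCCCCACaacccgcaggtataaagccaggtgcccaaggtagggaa
Both strands of each window, which also takes in a few bases after the start, were searched for the motifs CAAGGTC (SF-1), CNCCCCCNC (EGR1), TAATCC (PITX1), TGACGTCA (the cyclic AMP response element), TGANTCA (AP-1), TNGCGTG (the core bound by AhR) and GTCTAGAC (SMAD). In Lhb the first capitals, starting at -123, match SF-1 on the opposite strand and the second, starting at -47, match EGR1. Among all 33469 windows of this length, 4.2% held the SF-1 motif and 16.5% the EGR1 motif. Nr0b1 was the gene with the AhR core motif, at -67, against 4.89% of all windows, and EGR1 matches also fell in Inhbb and in Nr5a1. In Inhbb several matches overlap in a run of C, and a separate match on the opposite strand starts at -100. The windows of Gnrhr, Inha, Inhba and Cga, and that of the second Lhb start, held none of the 7 motifs. Only exact matches to these patterns were sought, so sites that depart from them by a letter are not marked, in Lhb or elsewhere. A match describes letters and does not show binding.

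The wider pathway was described through 3 lists, leaving out the 10 genes themselves. Of 37 genes of GnRH receptor signalling 32 were measured, 12 higher and 20 lower, with a median log2 difference of -0.06. None passed after adjustment, and 1 had an unadjusted p under 0.05 (3.12%, against 10.7% of all genes): Prkce, a protein kinase C, at -3.76 ± 0.11 in controls and -4.01 ± 0.16 after TCDD (SD, n = 4 each; difference -0.26, SE 0.10; limma, adjusted p = 0.42). With the mean over its probes the Prkce difference was -0.15 (SE 0.16; limma, adjusted p = 0.80), and with normexp and quantile normalization -0.14 (SE 0.051). Gnaq, the G protein subunit that couples Gnrhr, differed by -0.04 (SE 0.14). Egr1 differed by -0.17 (SE 0.43) and Atf3, another early gene, by -0.76 (SE 0.49), with a control SD of 1.07 for Atf3.

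Of 40 genes of activin, inhibin and BMP signalling 33 were measured, 22 higher and 11 lower, with a median of 0.05, and 0 had an adjusted or an unadjusted p under 0.05 (limma). The activin receptors Acvr1b, Acvr2a and Acvr2b differed by 0.29 (SE 0.15), 0.25 (SE 0.40) and -0.05 (SE 0.08). Of the receptors with related names, Acvr1c differed by -0.11 (SE 0.12) and Acvr1 by 0.26 (SE 0.12). Smad2, which carries the activin signal to the nucleus, differed by 0.16 (SE 0.12), and Fstl3, a relative of follistatin, also by 0.16 (SE 0.09). With normexp and quantile normalization Acvr1b, Smad2 and Fstl3 differed by 0.033, 0.025 and 0.023. Noggin (Nog), a BMP antagonist, had the widest difference of the list, 0.57 (SE 0.27; limma, adjusted p = 0.52). Betaglycan (Tgfbr3), the inhibin co-receptor, was well above background on 0 control arrays and 2 TCDD arrays, and Smad3 on none.

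Of 36 genes of gonadotroph transcription and steroid feedback 31 were measured, 17 higher and 14 lower, with a median of 0.03. None passed after adjustment, and 1 had an unadjusted p under 0.05 (3.23%): Foxo3, a forkhead factor, at -4.85 ± 0.24 in controls and -5.19 ± 0.11 after TCDD (SD, n = 4 each; difference -0.35, SE 0.12; limma, adjusted p = 0.40). With normexp and quantile normalization the Foxo3 difference was -0.093 (SE 0.053; limma, adjusted p = 0.56). By the 75th percentile scaling its groups did not overlap, from -5.02 to -4.51 in controls and from -5.31 to -5.05 after TCDD. Pitx1 and Gata2, factors of the gonadotroph lineage, differed by 0.03 (SE 0.07) and -0.18 (SE 0.20), the oestrogen receptor Esr1 by 0.30 (SE 0.15; 0.043 with normexp and quantile normalization) and the orphan receptor Nr4a1 by 0.59 (SE 0.67). Atf3, Nog and Nr4a1 were named for their size after the values were seen.

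**Figure D5:**
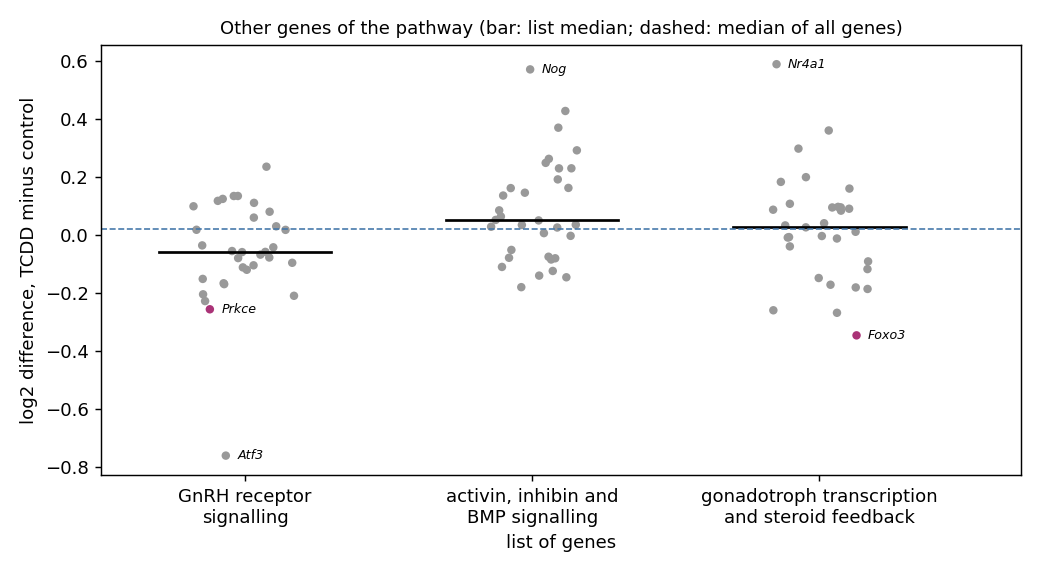
Log2 difference between TCDD and control (y axis) for each measured gene of the 3 lists (x axis), with purple points at an unadjusted p under 0.05, a bar at each list's median and a dashed line at the median of all genes, 0.02. The points at an unadjusted p under 0.05 are Prkce and Foxo3, both below 0.

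Genes whose log2 signals followed Fshb closely over the 8 arrays, by Pearson's r among 12475 genes with a symbol, included Tjp3 (r = 0.949), Col18a1 (0.945), Tm4sf1 (0.944) and C8h15orf39 (0.944). Their differences between the groups were -0.30, -0.41, -0.34 and -0.30. The most opposite were Pcbp1 (r = -0.986), Mtmr6 (-0.963), Tlx3 (-0.958), Echdc1 (-0.950) and Noxo1 (-0.950), with differences of 0.15, 0.16, 0.24, 0.16 and 0.23. In all, 22 genes had r above 0.9 and 43 below -0.9. All points share the arrays and the slides.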

How the data were processed

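Per the file headers, spots were read by Agilent Feature Extraction (version 10.7.1.1) and probe coordinates are on rn4. The deposited processed intensities are linear, background-subtracted and detrended within each array, with surrogates for dim spots. The authors' deposited value table holds intensities brought to nearly 1 distribution and served as an alternative. How it was scaled is not stated in the labels.

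Log2 processed signal minus the array's 75th percentile was averaged over a probe's spots, without outlier spots. Names were updated through RefSeq (GRCr8): 18006 of 30367 probes by accession, 2654 by symbol and 559 by an older symbol. Probes well above background on at least 4 arrays were kept, and the brightest per gene was used. limma 3.58.1 (R 4.3.3) compared the groups over 17361 genes, two-sided. SE and intervals come from that fit. The number of arrays limits the precision.

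Genes, lists and tests were chosen with earlier results of these data known. Named genes are the 10, Cga, up to 5 per list with an unadjusted p under 0.05, the 5 most and 5 least like Fshb (1 of which is not reported here), and others picked by role. Replicate numbers did not pair the samples: the correlation of same-numbered arrays' deviations lay between -0.10 and -0.02.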

Additional observations from a re-analysis of the deposited data

Results flagged for a closer look

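In 46 groups of 4 arrays (member probes above background, the list genes with an unadjusted p under 0.05, and the within-array differences), 1 array stood far from the other 3, where chance alone gives about 5%. This was Inha on control replicate 4, at -0.93 on the log2 scale against -1.20 to -1.17 on the other controls, with a gap of 0.908 of the group's range.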

How the results depend on the processing

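Fshb, the 9 within-array differences and the count of 0 members past the threshold kept their direction and side of the threshold under every alternative run, Fshb lying between -0.89 and -0.59 (limma, adjusted p 0.24 to 0.62). For the within-array differences the side was nearly fixed in advance. With so few arrays no exact permutation p falls below 0.029, and after adjustment a pair could pass only if most of the 9 reached that floor. The count of 14 genes over the whole array was 0 with normexp and quantile normalization (limma, 1077 higher and 846 lower at an unadjusted p under 0.05), 1 with quantile normalization, 9 with median centring, 4 with trend and robust variance, 30 with array weights, 1 with the deposited table, and between 0 and 11 leaving out 1 array. Replicate numbers are shared only as names: with them as a replicate block 0 genes passed (limma, 1071 higher and 443 lower at an unadjusted p under 0.05). With that block Fshb stood at -0.71 (SE 0.13; limma, unadjusted p = 0.0023, adjusted p = 0.43). Gnrhr stood at -0.52 (SE 0.15; limma, unadjusted p = 0.015, adjusted p = 0.47). Differences near 0 turned sign. Lhb was -0.012 with array weights and -0.086 to 0.14 leaving out 1 array. Nr5a1 was -0.0073 with normexp, -0.0097 with quantile normalization, -0.0040 with median centring, -0.012 with the deposited table and -0.032 to 0.088 leaving out 1 array. Nr0b1 was -0.0047 with array weights and -0.0089 to 0.12 leaving out 1. Cga was 0.12 with normexp, 0.11 with quantile normalization and with the deposited table, 0.0055 with array weights and -0.11 to 0.057 leaving out 1. Pitx1 was -0.0047 with median centring. Leaving out 1 array, Pitx1 ran from -0.0063 to 0.054, Acvr2a from -0.11 to 0.54, Acvr2b from -0.091 to 0.016, Gnaq from -0.17 to 0.063 and Egr1 from -0.41 to 0.21. With normexp and quantile normalization Inhba was -0.049, Gata2 -0.075, Atf3 -0.45 and Nog 0.27. Leaving out 1 array, Gata2 ran from -0.32 to -0.019, Atf3 from -1.13 to -0.40, Nog from 0.32 to 0.71 and Nr4a1 from 0.27 to 1.23. Correlations with Fshb changed sign for Inha over deviations from group means (-0.74), for Inhbb without the 2 farthest arrays (0.33), over deviations (0.47) and with normexp (0.034), for Fst without the 2 farthest (-0.15) and for Nr0b1 without the 2 farthest (0.38). The Gnrhr correlation did not pass without the 2 farthest arrays or over deviations, and that of Lhb passed over deviations only. The causes were not tested. Signal over background limits Foxl2, on no array, and the dimmer Nr5a1 probe, on 6.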
